A study of Mus musculus with 111 samples.

Results

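A set of 8 genes of poly(ADP-ribose) metabolism and DNA break repair, out of 13448 genes tested and 36134 gene identifiers counted, was followed in single mouse embryos after knockdown of the nuclear receptor Nr5a2. These genes were Parp1, Parp2, Parg, Xrcc1, Lig3, Slx1b, Slx4 and Brca1. Parp1 and Slx1b were chosen by their log2 fold change between knockdown and control in these same embryos, so their fold changes are given as a description with no test. The other 6 were added for their role beside them and were tested. All 8 passed the filter on low counts.

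Embryos of strain B6129F1 were collected at the 2-cell stage, and the polyadenylated RNA of each was sequenced on its own by SmartSeq2 from oligo dT primers. Both arms came from isolated oocytes at the germinal vesicle stage that were microinjected, held for 5 h under dbcAMP, which keeps them arrested in meiosis, released and cultured for 12 h, fertilized in vitro and grown in KSOM medium. Knockdown embryos had received a set of 2 siRNAs against Nr5a2, at 20 µM each, with 150 ng/µl of H2B-rsEGFP, histone H2B fused to a fluorescent protein, as injection marker. Control embryos had received control siRNAs with 150 ng/µl of H2B-EGFP, so the marker differed between the arms along with the siRNAs. The control and knockdown embryos numbered 24 and 16 in experiment 1, 7 and 16 in experiment 2, and 25 and 23 in experiment 3. Which embryos came from the same mother is not in the labels, and every p-value here measures the spread between single embryos. In RNA from a whole embryo, fewer cells with a transcript and fewer copies of it per cell cannot be told apart.

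PARP1 and PARP2 are enzymes that sense DNA breaks and build chains of ADP-ribose on themselves, on histones and on other proteins, and PARG cuts these chains down again. The chains recruit XRCC1, a scaffold that holds DNA ligase 3, the enzyme that seals single-strand breaks. SLX1 is the catalytic subunit and SLX4 the scaffold of an endonuclease that cuts branched DNA, and BRCA1 acts in the repair of double-strand breaks by homologous recombination. The early embryo begins with proteins and RNA stored in the egg and starts transcription from its own genome at the stages sampled here.

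Estimated counts per library spanned 1.97 M to 21.4 M, with medians of 4.98 M (control) and 4.54 M (knockdown). Levels below are CPM, counts per M after scaling between libraries. Nr5a2 had a median of 103 CPM in control and 47.2 CPM in knockdown embryos (log2 fold change -1.17, SE 0.12, edgeR), and lay under the control median of its own experiment in 52 of 55 knockdown embryos. The 10 markers of the 2-cell stage summed to between 253 and 7093 CPM in control and between 155 and 6814 CPM in knockdown embryos, and none of the 10 was at 0 in every embryo. Of 10 cumulus cell markers, 2 were abundant enough to be tested, and their list summed to at most 38.5 CPM in control and 44.2 CPM in knockdown embryos. The 6 sperm markers summed to at most 6.13 and 7.52 CPM. The 13 mitochondrial transcripts were higher in the knockdown arm, with median sums of 68872 and 76135 CPM. Of the 13, 6 were called higher by edgeR's quasi-likelihood test, as were 0.632% of all genes. The median sums of control and knockdown embryos were 76154 and 77824 CPM in experiment 1 and 59732 and 62665 CPM in experiment 2. They were farthest apart in experiment 3, at 67841 and 84153 CPM.

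Knockdown embryos 5, 8 and 15 of experiment 3 were the libraries least like the others and are called the 3 that stood apart below. Their median Pearson r with the other embryos was 0.644, 0.637 and 0.699, against 0.712 to 0.875 in the other 108 embryos. In embryos 5, 8 and 15 the oocyte markers summed to 6727, 13317 and 3334 CPM, and the mitochondrial transcripts to 174562, 108746 and 125885 CPM. In experiment 1, single embryos reached 160184 CPM (control) and 140921 CPM (knockdown) of mitochondrial transcripts, and 6522 CPM (knockdown) of oocyte markers. The 2-cell markers summed to 155, 651 and 6814 CPM in embryos 5, 8 and 15, so these libraries set both ends of the knockdown range above. Values without these 3 libraries are given below beside several of the results that they touch. This alternative was chosen after their values were seen.

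Parp1, the main writer of ADP-ribose chains, was lower in knockdown than in control embryos in all 3 experiments. In experiment 1 it ran from 28.1 CPM through a median of 52.0 to 105 CPM in controls, and from 15.5 through 34.7 to 64.2 CPM in knockdown embryos. In experiment 2 the control values were 19.7, 67.2 and 234 CPM (lowest, median, highest), and the knockdown values 26.7, 56.2 and 131 CPM. In experiment 3 the controls spanned 18.9 to 191 CPM with a median of 56.3, and the knockdown embryos 8.33 to 141 CPM with a median of 37.0. The arms overlapped in every experiment, since single embryos of 1 group differed from each other by more than the medians did. Even so, 43 of 55 knockdown embryos lay under the control median of their own experiment, with 14 of 16, 9 of 16 and 20 of 23 in experiments 1, 2 and 3.

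Over all embryos the log2 fold change of Parp1 was -0.65 (SE 0.15), which is 0.637 times the control level. In experiments 1, 2 and 3 it was -0.56 (SE 0.25), -0.34 (SE 0.34) and -0.84 (SE 0.22), so it was smallest in the experiment with 7 controls. Control embryo 6 of experiment 2, at 234 CPM, held the highest Parp1 of all embryos, and the fold change was -0.58 without it and -0.60 without the 3 libraries that stood apart. These values describe a gene that was chosen for this difference. As background to its count, 0.468% of all genes tested were called lower in knockdown embryos.

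**Figure D1:**
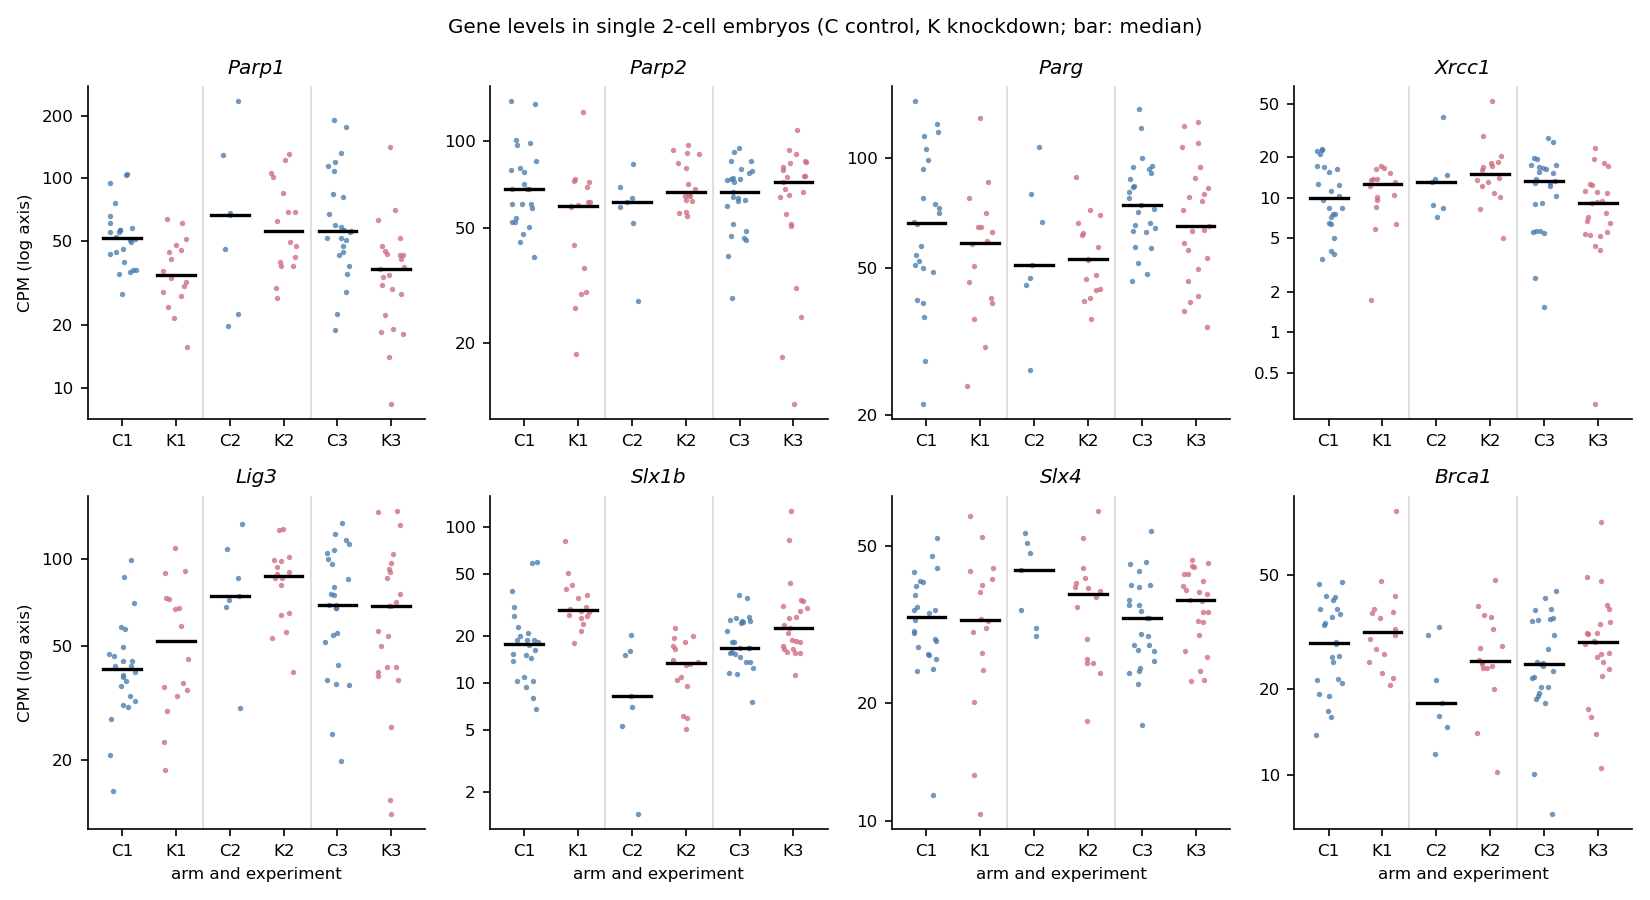
Levels of the 8 genes in single embryos, in CPM on a log axis, for control (C, blue) and knockdown (K, red) embryos of experiments 1 to 3; each point is 1 embryo and each bar the group median. The arms overlap in every panel, and the Parp1 medians of knockdown embryos, 34.7, 56.2 and 37.0 CPM, lie under those of controls, 52.0, 67.2 and 56.3 CPM.

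The Parp1 gene lies on the plus strand of chromosome 1 (GRCm38, GENCODE M21, start 180568924, end 180601254, ENSMUSG00000026496). The 250 bases before its RefSeq start are shown because Nr5a2 is a DNA-binding factor and Parp1 was picked as lower after its knockdown, and no exon of GENCODE M21 lies in them. They are given 5′ to 3′ on the plus strand, with the letters that match AAGGNCA in capitals.

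Parp1 upstream window, chr1:180568641-180568890 (GRCm38.p6, RefSeq): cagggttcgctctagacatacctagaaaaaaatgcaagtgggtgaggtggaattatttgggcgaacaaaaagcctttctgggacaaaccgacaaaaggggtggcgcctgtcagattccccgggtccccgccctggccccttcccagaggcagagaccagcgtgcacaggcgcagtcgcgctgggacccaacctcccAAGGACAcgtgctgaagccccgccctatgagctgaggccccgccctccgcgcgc

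The letters of 2 motifs were searched on both strands: TCAAGGNCA, the monomer motif of the Nr5a2 family, and the shorter AAGGNCA, which the longer motif contains. This window held 1 match to AAGGNCA, which began 54 bases before the start, and 0 matches to TCAAGGNCA. The match read AAGGACA, with an A at the place N, where the search allowed any letter. Of 32851 windows of the same length in the RefSeq table, 17.5% held AAGGNCA and 1.39% held TCAAGGNCA. The window was 61.6% G and C and held 16 CG dinucleotides, against medians of 52.4% and 6 over all windows. The same search of the other 7 genes found AAGGNCA in the windows of Parg (AAGGTCA), which was not called, and neither motif in the others. Not all of these windows lie outside the genes. Those of Xrcc1 (24546449 to 24546698) and Slx4 (4001679 to 4001928) lie within the GENCODE M21 gene. In the Slx1b window all 250 bases are exon bases of Bola2 or Slx1b. Each Parg window holds 200 exon bases, of Timm23 or Parg. The windows of Lig3, Parp2 and Brca1 hold 185, 177 and 57 exon bases. Neither a match nor a lack of a match in these windows can be set beside the Parp1 window. A match to letters is a description of the window and says nothing of binding.

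Parp2, the second break-sensing writer, had nearly the same median in both arms. Control embryos ran from 27.9 through 65.1 to 137 CPM and knockdown embryos from 12.3 through 65.0 to 126 CPM, and the arms overlapped. The log2 fold change was -0.09 (95% interval -0.29 to 0.12, adjusted p = 0.918, edgeR quasi-likelihood test), with 23 of 55 knockdown embryos under their control median. By experiment it was -0.38 (SE 0.17), 0.28 (SE 0.24) and -2.74e-05 (SE 0.15), and the test of a difference between experiments gave an adjusted p of 0.917. Knockdown embryos of experiment 3 ran from 12.3 through 72.1 to 109 CPM. Without the 3 libraries that stood apart they ran from 31.0 through 75.1 to 109 CPM.

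Parg, the eraser of the chains, spanned 21.4 to 142 CPM with a median of 68.8 in controls, and 23.9 to 128 CPM with a median of 59.2 in knockdown embryos. Its log2 fold change was -0.18 (95% interval -0.38 to 0.03, adjusted p = 0.661, edgeR), negative in each experiment at -0.27, -0.13 and -0.12. The interval leaves room for a fall of up to 0.38 on the log2 scale, and the difference was smaller than the spread between embryos.

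Xrcc1, the scaffold of single-strand break repair, had the lowest median CPM of the 8 over all controls and over all knockdown embryos, although in experiment 2 Slx1b lay below it in both arms. Controls ran from 1.55 through 12.5 to 40.1 CPM and knockdown embryos from 0.292 through 11.3 to 52.4 CPM, and the arms overlapped. The log2 fold change was -0.17 (95% interval -0.49 to 0.15, adjusted p = 0.865, edgeR). It was -0.44 (SE 0.24) in experiment 3, where 19 of 23 knockdown embryos lay under the control median, and -0.02 and 0.18 in experiments 1 and 2, and without experiment 3 it was 0.06. The test of a difference between experiments gave an adjusted p of 0.973. Knockdown embryos of experiment 3 ran from 0.292 through 9.09 to 23.5 CPM. Without the 3 libraries that stood apart they ran from 4.07 through 9.39 to 23.5 CPM.

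Lig3, the ligase bound by XRCC1, had medians of 54.9 CPM in controls (15.5 to 134) and 68.6 CPM in knockdown embryos (12.9 to 147). Its log2 fold change was 0.08 (95% interval -0.17 to 0.34, adjusted p = 0.944, edgeR) and went from 0.31 in experiment 1 through 0.06 in experiment 2 to -0.09 in experiment 3. By experiment, the medians of control and knockdown embryos were 41.3 and 51.8 CPM, 74.7 and 87.6 CPM, and 69.5 and 68.6 CPM. Lig3 also shares 1826 exon bases with Rffl, a gene on the opposite strand, and the libraries do not record the strand. Rffl fell in the knockdown arm, from a mean of 100 CPM to 62.4 CPM (log2 fold change -0.79, SE 0.21, adjusted p = 0.0315, edgeR), in 40 of 55 embryos, so counts of the shared bases cannot be assigned to 1 of these genes with certainty.

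Slx1b, the nuclease subunit, was higher in knockdown embryos in all 3 experiments. In experiment 1 its control values were 6.74, 17.8 and 59.0 CPM (lowest, median, highest) and its knockdown values 17.9, 29.4 and 81.1 CPM. In experiment 2 they were 1.44, 8.27 and 20.3 CPM in controls and 5.07, 13.4 and 22.5 CPM in knockdown embryos. In experiment 3 controls ran from 7.52 through 16.7 to 36.4 CPM and knockdown embryos from 11.2 through 22.6 to 126 CPM. The arms overlapped in each experiment, but in experiment 1 all 16 knockdown embryos lay above the control median, as did 13 of 16 in experiment 2 and 17 of 23 in experiment 3.

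The log2 fold change of Slx1b was 0.61 (SE 0.14), 1.53 times the control level, again a description of a gene chosen for it. It was 0.72 (SE 0.24), 0.37 (SE 0.35) and 0.63 (SE 0.21) in experiments 1, 2 and 3. The 3 libraries that stood apart held the 3 highest Slx1b values of their group, at 82.3, 43.5 and 126 CPM in embryos 5, 8 and 15. Without them the knockdown embryos of experiment 3 ran from 11.2 through 19.8 to 33.9 CPM and the fold change over all experiments was 0.43. Over all genes tested, 0.632% were called higher in knockdown embryos. Slx1b lies on the minus strand of chromosome 7 (126689468 to 126695784, GRCm38, GENCODE M21). It shares 360 exon bases with Bola2 on the opposite strand and 219 with the pseudogene Gm6939, whose change is not given here. The log2 fold change of Bola2 itself was 0.29 (SE 0.16, edgeR adjusted p = 0.598). By experiment it was 0.70 (SE 0.26), 0.17 (SE 0.37) and 0.01 (SE 0.23). Since the libraries do not record the strand, counts of the shared bases cannot be assigned to 1 of these genes with certainty.

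Slx4, the scaffold that SLX1 needs for its activity, showed the narrowest spread between embryos of the 8 genes, with a biological coefficient of variation of 0.300 against 0.530 fitted for genes of its level. Controls ran from 11.7 through 33.3 to 54.8 CPM and knockdown embryos from 10.4 through 36.6 to 61.5 CPM. The log2 fold change was 0.02 (95% interval -0.15 to 0.19, adjusted p = 0.986, edgeR), and its sign was negative in experiment 2, at -0.21, and positive in the others.

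Brca1, of homologous recombination, had medians of 24.8 CPM in controls (7.30 to 47.2) and 28.7 CPM in knockdown embryos (10.3 to 83.6). The log2 fold change was 0.25 (SE 0.11, 95% interval 0.04 to 0.47), with 41 of 55 knockdown embryos above their control median and positive values of 0.22, 0.39 and 0.23 in the 3 experiments. Its unadjusted p was 0.021 and its adjusted p 0.365 (edgeR), so it did not pass the test over all genes.

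Of the 6 genes tested, 0 were called at an adjusted p under 0.05 by edgeR's quasi-likelihood test, where 1.10% of all genes were called, and 0 were called by DESeq2 or limma-voom. Of the 6, 1, Brca1, had an unadjusted p under 0.05, as did 1278 of all 13448 genes tested. In a simulation of this comparison over 13451 features, 60% of genes changed by 1.5-fold and 85% of those changed by 2-fold were recovered. The simulated embryos were drawn independently and carried no difference between experiments, so these shares need not hold for the embryos sequenced. The test of whether the response differed between experiments called 0 of the 6 (0.0149% of all genes were called), and their adjusted p-values ran from 0.917 to 0.992.

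**Figure D2:**
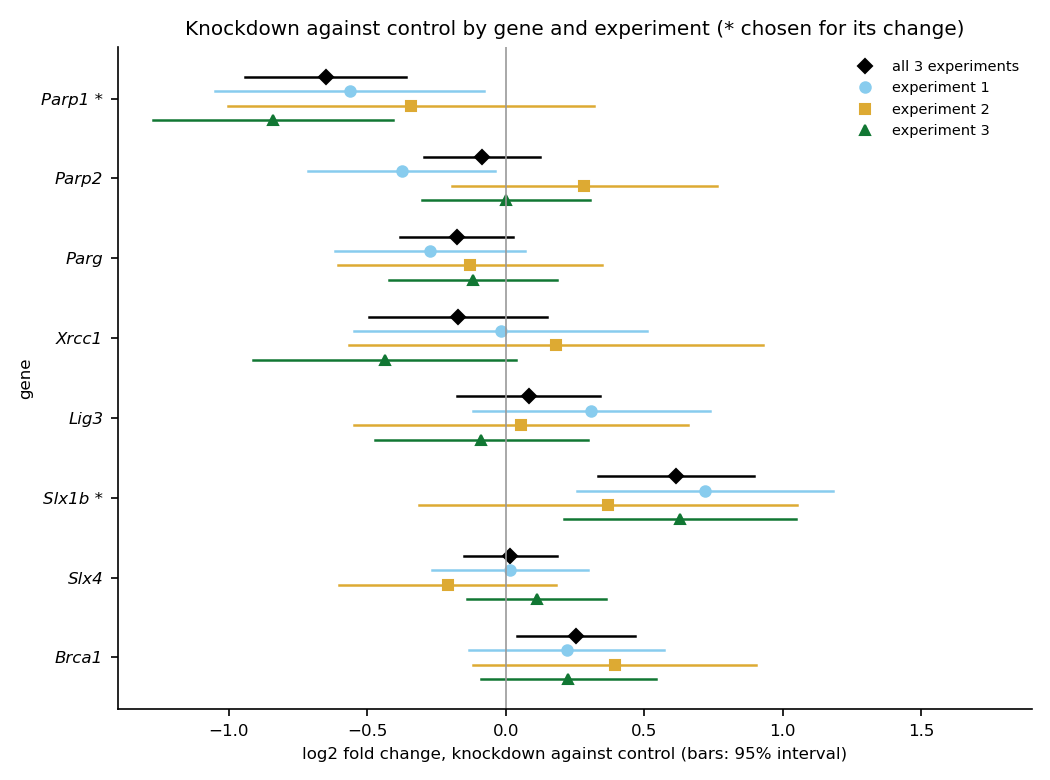
Log2 fold change of each gene, knockdown against control, with 95% intervals, over all 3 experiments (black) and in each one. The 2 genes with a star, Parp1 and Slx1b, were chosen for this difference; the intervals of Parp2, Parg, Xrcc1, Lig3 and Slx4 over all experiments include 0, and that of Brca1 runs from 0.04 to 0.47.

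The levels themselves differed between experiments, in embryos of the same arm, a comparison that had no part in the choice of the genes. Slx1b was low in experiment 2 in both arms. Among knockdown embryos it was lower in experiment 2 than in experiment 1 by a log2 difference of -1.36 (SE 0.27, adjusted p = 0.000224, edgeR), and higher in experiment 3 than in experiment 2 by 1.18 (SE 0.25, adjusted p = 0.000778). In controls the same differences were -0.98 (SE 0.35, adjusted p = 0.0838) and 0.89 (SE 0.34, adjusted p = 0.204) and did not pass, with 7 controls in experiment 2. DESeq2 called the first of them (adjusted p = 0.0495), and edgeR did so without control embryo 6 (-1.24, adjusted p = 0.0388).

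Lig3 was low in the controls of experiment 1, with a median of 41.3 CPM against 74.7 and 69.5 CPM in experiments 2 and 3. The log2 differences were 0.88 (SE 0.25, adjusted p = 0.024, edgeR) for experiment 2 and 0.73 (SE 0.18, adjusted p = 0.0042) for experiment 3. Without control embryo 6 of experiment 2, which had the highest Lig3 of its group at 132 CPM, the first became 0.72 with an adjusted p of 0.121. The knockdown embryos gave 0.61 and 0.34 for these steps, with adjusted p-values of 0.111 and 0.628.

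Parp1 passed the test between experiments in the knockdown arm. It was higher in experiment 2 than in experiment 1 by 0.79 (SE 0.26, adjusted p = 0.0348, edgeR) and lower in experiment 3 than in experiment 2 by -0.70 (SE 0.23, adjusted p = 0.0399). In controls the differences were 0.60 (SE 0.32, adjusted p = 0.321) and -0.22 (SE 0.32, adjusted p = 0.832). A test of whether the arms differ in this is not given for Parp1, which was chosen for its change between them. Passing in 1 arm and not in the other does not show that the arms differ. The first of the knockdown calls was lost with limma-voom (adjusted p = 0.0571) and the second with no low-count filter (adjusted p = 0.0541). Xrcc1 was lower in experiment 3 than in experiment 2 among knockdown embryos, by -0.80 (SE 0.27, adjusted p = 0.04), a call lost with limma-voom (adjusted p = 0.0582) and with no filter (adjusted p = 0.058). Without the 3 libraries that stood apart, the steps from experiment 2 to 3 in Parp1 (-0.65, adjusted p = 0.0833) and Xrcc1 (-0.72, adjusted p = 0.0608) no longer passed, while Slx1b passed from experiment 1 to 3 (-0.62, adjusted p = 0.0456).

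Counted over the 8 genes, 1 was called between the controls of experiments 2 and 1 (5.73% of all genes), 1 between 3 and 1 (10.7%) and 0 between 3 and 2 (1.84%). Among knockdown embryos, 2 were called between experiments 2 and 1 (11.0% of all genes), 0 between 3 and 1 (1.30%) and 3 between 3 and 2 (11.4%). Parp2, Parg, Slx4 and Brca1 were called in none of the 6 comparisons.

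Most counts of Parp1 and Slx1b came from 1 annotated transcript each. Parp1-201, the full coding transcript of 3873 bases, carried 92.0% of the Parp1 counts and had means of 62.1 CPM in control and 42.3 CPM in knockdown embryos (SD 41.6 and 28.8, n = 56 and 55), a log2 fold change of -0.74 (SE 0.16). Parp1-204, a short transcript of 553 bases with a retained intron, had 3.46 and 4.01 CPM and a log2 fold change of 0.22 (SE 0.19). The difference in the gene total thus lay in its coding transcript. Slx1b-203 carried 94.98% of the Slx1b counts, with means of 17.6 and 25.4 CPM and a log2 fold change of 0.66 (SE 0.15).

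Several of the tested genes divided their counts among more transcripts. Of Slx4, 41.9% of the counts went to Slx4-205, annotated as a target of nonsense-mediated decay, and 29.1% to the coding Slx4-201. Of Parp2, 73.8% went to the coding Parp2-201 and 18.5% to Parp2-206, which retains an intron. The 2 largest Lig3 transcripts, Lig3-203 and Lig3-211, held 55.3% and 26.0% of its counts and share 414 and 1750 exon bases with Rffl. Lig3-204, a coding transcript of 1782 bases that shares 0 bases with Rffl, had 5.59 CPM in control and 2.62 CPM in knockdown embryos. Its log2 fold change was -1.24 (SE 0.40, adjusted p = 0.227, edgeR), and limma-voom called it at -1.99 (adjusted p = 0.0132). Among the transcripts of the 6 tested genes edgeR called 0, where 0.309% of all 25258 transcripts tested were called, and the division of counts between overlapping transcripts is the estimate that the authors' counting made.

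Per length of transcript, and so on a scale that allows genes to be compared, Parp2 was the most abundant of the 8 in control embryos. The median level was 38.9 CPM per kb for Parp2, 23.7 for Parg, 20.9 for Parp1, 15.1 for Slx4, 13.3 for Lig3, 7.13 for Xrcc1, 5.69 for Slx1b and 5.27 for Brca1. Means and SDs over the 56 controls were 40.8 ± 12.6 CPM per kb for Parp2 and 24.7 ± 10.2 for Parg, a gap larger than either SD. Lig3, at 16.3 ± 8.11, likewise stood above Xrcc1, at 7.53 ± 4.02. Parp1, at 24.4 ± 12.9, and Slx4, at 15.2 ± 4.52, differed by more than the SD of Slx4 but less than that of Parp1. The other neighbours by median differed by less than either SD, and Lig3 and Slx4 change places by mean. The order pools controls of 3 experiments and held only in part within them: Lig3 lay above Slx4 in experiments 2 and 3 (26.9 against 17.6 and 19.8 against 15.1 CPM per kb), and Parp1 above Parg in experiment 2 (28.7 against 18.8). In experiment 1 the lowest was Xrcc1, at 5.55, and Brca1 lay above Slx1b (6.12 against 5.89), as it did in experiment 2 (3.72 against 3.59). Parp2 had the highest median and Slx1b lay below its scaffold Slx4 in the controls of each experiment.

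Other repair genes, 128 in 8 lists and without the 8 described above, were set beside them. Of these, 120 were tested and 0 were called in either direction by edgeR's quasi-likelihood test, DESeq2 or limma-voom. Of all genes, edgeR called 1.10%. An unadjusted edgeR p under 0.05 was found for 11 of the 120, and for 1278 of all 13448 genes tested. The median log2 fold change of the 120 was 0.01, with 54 negative and 66 positive. Over all genes tested the median was 0.02, with 45.1% negative. The 13 tested members of the PARP family other than Parp1 and Parp2 ranged from -0.38 to 0.42, with 5 negative and 8 positive, and the smallest p among them was that of Parp10, a mono-ADP-ribosyltransferase (0.37, SE 0.19, adjusted p = 0.535).

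In the list of ADP-ribose removal and binding, 0 of 8 tested genes were called, and Nmnat1, which makes the NAD+ of the nucleus, had the smallest p with 0.38 on the log2 scale (SE 0.14, adjusted p = 0.249, edgeR). Its median was 61.3 CPM in control and 86.5 CPM in knockdown embryos. In base excision and single-strand break repair, 0 of 17 were called, with 11 negative, and Tdp2, which removes trapped topoisomerase 2 from DNA ends, had -0.24 (SE 0.10, adjusted p = 0.316). Of 13 junction and flap nucleases 0 were called, and Mus81, a partner of the SLX4 complex, had -0.33 (SE 0.14, adjusted p = 0.387).

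Homologous recombination had 0 of 25 called, 12 negative and 13 positive, and Abraxas1, a subunit of the BRCA1-A complex, had the smallest p of its list at -0.43 (SE 0.14, adjusted p = 0.141). Abraxas1 had medians of 15.9 and 11.8 CPM in control and knockdown embryos and lay under the control median in 38 of 55. The lowest fold change of all 120 was that of Bard1, the binding partner of BRCA1, at -0.68 (SE 0.27, adjusted p = 0.302), named after its value was seen. End joining (0 of 15 called) was led by Xrcc6, the Ku70 subunit, at -0.28 (SE 0.14, adjusted p = 0.493), and the Fanconi anaemia pathway (0 of 14) by Faap100 of its core complex at -0.29 (SE 0.14, adjusted p = 0.465). Break signalling (0 of 15) was led by Atrip, the partner of the ATR kinase, at 0.30 (SE 0.12, adjusted p = 0.319), which was positive in experiments 1 and 3 and negative in experiment 2. The adjusted p-values of this paragraph are from edgeR.

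**Figure D3:**
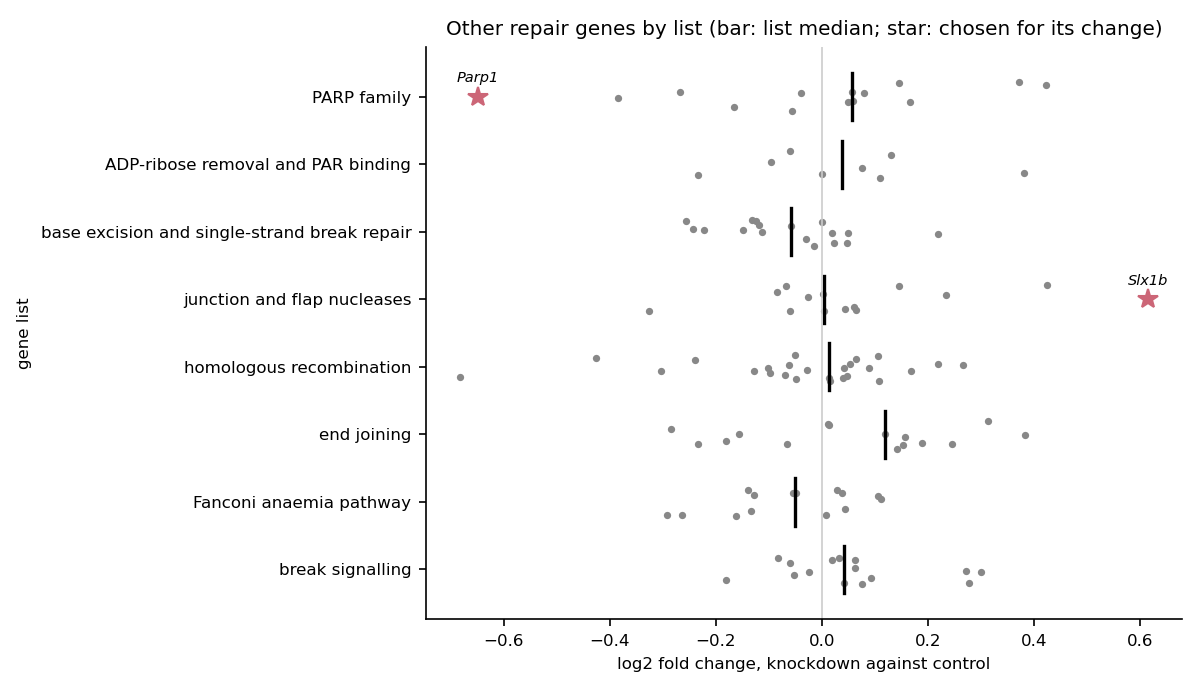
Log2 fold change, knockdown against control, of 120 other repair genes in 8 lists; each grey point is 1 gene, each bar the median of its list, and the stars are Parp1 (-0.65) and Slx1b (0.61), which were chosen for their change. The list medians lie between -0.06 and 0.12.

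Variation between embryos of 1 group gave a view of the 8 genes that is free of the arms. After the mean of each of the 6 groups was removed, 20 of the 28 pairs had a positive Pearson r over all embryos, and 10 pairs passed a permutation test within groups after Benjamini-Hochberg adjustment over the 28. Of these 10, 9 were positive, and 5 also passed by Spearman's rho. These 5 were Parg with Lig3 (r = 0.475, rho = 0.473), Parp1 with Parg (r = 0.408, rho = 0.471), Parp1 with Lig3 (r = 0.398, rho = 0.356), Parp2 with Parg (r = 0.372, rho = 0.342) and Parg with Xrcc1 (r = 0.354, rho = 0.488), with adjusted permutation p-values of r from 0.00028 to 0.00101. They stayed between 0.348 and 0.462 without the 2 embryos farthest from the median, and between 0.413 and 0.445 without the 3 libraries that stood apart. For scale, the 95th percentile of the r with 7658 genes of at least 4 average log2 CPM was 0.482 for Parp1, 0.578 for Parp2, 0.516 for Parg, 0.566 for Lig3 and 0.340 for Xrcc1. The r of Parg with Xrcc1 thus lay above this percentile for Xrcc1 and below it for Parg, and the other 4 lay below it for both genes. The median r with the 7658 genes ran from -0.070 for Slx1b to 0.106 for Parp2. The share of other gene pairs that would be positive or pass is not given here. Whether 20 positive and 10 passing pairs of 28 are many therefore cannot be told.

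Parp1 and Slx1b, picked for opposite differences between the arms, had an r of -0.028 between embryos (rho = -0.017, adjusted permutation p of r = 0.856). The 1 negative pair that passed, Parp2 with Slx1b (r = -0.253, adjusted permutation p = 0.0302), had a rho of -0.057, fell to -0.138 without the 2 farthest embryos and to -0.047 without the 3 libraries that stood apart, so it rested on those embryos.

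**Figure D4:**
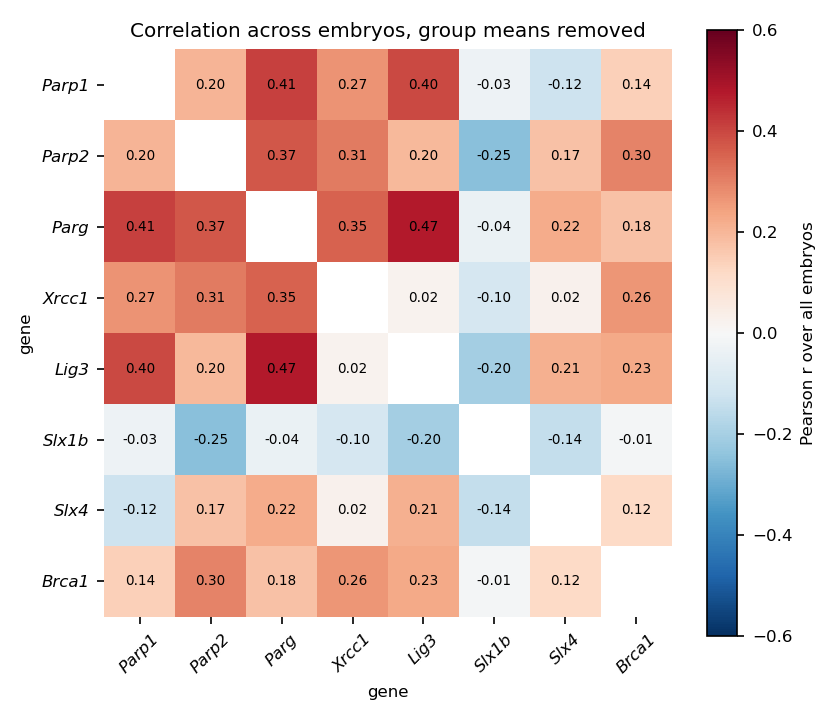
Pearson r between each pair of the 8 genes over all embryos, after the mean of each group was removed; red is positive and blue negative. Parg, Parp1 and Lig3 form the reddest cells, from 0.398 to 0.475, and the row of Slx1b is blue, from -0.253 to -0.012, in these libraries; without the 3 that stood apart, its pairs with Parp1 (0.005), Parg (0.033) and Brca1 (0.091) are positive.

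For each gene the 2 genes most like it across embryos, by the same r over all embryos, were named. For Parp1 they were Atg3 (0.650) and Ola1 (0.647), for Parp2 Fam13b (0.726) and Luc7l (0.715), and for Parg Strap (0.698) and Kif18a (0.694). For Lig3 they were Abcf2 (0.729) and Mknk1 (0.723), and for Xrcc1 Actn2 (0.530) and Slc4a11 (0.491). Slx4 was most like Nsd1 (0.444) and Trim26 (0.429), and Brca1 most like Yipf5 (0.522) and Kat2b (0.497). The partners of Slx1b were Pola2 (0.454), a subunit of DNA polymerase alpha, and the mitochondrial transcript mt-Nd1 (0.450). Pola2 rose in the knockdown arm, from a mean of 212 to 304 CPM (log2 fold change 0.51, SE 0.13, adjusted p = 0.032, edgeR), and no other of these 16 partners was called. Without the 3 libraries that stood apart the r of Slx1b was 0.416 with Pola2 and 0.372 with mt-Nd1, and the r of Parp2 with Luc7l fell to 0.576 and that of Xrcc1 with Slc4a11 to 0.343.

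The levels were next set against the amount of Nr5a2 in the same embryo, within each group. Of 48 correlations (8 genes in 6 groups), 0 passed a permutation test after adjustment over the 48, and the smallest adjusted p was 0.54, for Xrcc1. The Pearson r of Parp1 with Nr5a2 was positive in all 6 groups, from 0.04 to 0.41, and its rho in 5 of 6. When the 2 embryos with the most extreme Nr5a2 were left out, r turned to -0.78 in the controls of experiment 2 and -0.09 in the knockdown embryos of experiment 1. The r of Slx1b with Nr5a2 was negative in 5 of 6, from -0.40 to 0.18, and its rho in 4 of 6, up to 0.28. Slx4 was positive in 5 of 6 groups by both r and rho. The r was positive in 4 groups for Parp2 and Lig3, 3 for Parg and Xrcc1, and 2 for Brca1. The share of all genes with such signs is not given here, so the signs cannot be called particular to Parp1 or Slx1b.

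The summed 2-cell markers and the summed mitochondrial transcripts varied between embryos. The 8 genes were therefore also set against both sums of the same embryo, a comparison chosen after the levels had been seen. Parp1, Parg, Xrcc1 and Lig3 each had a negative Pearson r with the 2-cell markers in all 6 groups, which ran from -0.73 to -0.17 for Parp1, from -0.80 to -0.24 for Parg, from -0.71 to -0.01 for Xrcc1 and from -0.58 to -0.34 for Lig3. Of 13451 features, 21.5% were negative in all 6 groups. Without the 2 farthest embryos the sign turned in the controls of experiment 2 for Parg (0.26), Xrcc1 (0.13) and Lig3 (0.13) and in the controls of experiment 1 for Xrcc1 (0.07), and it held in all groups for Parp1. Of the 96 correlations, 1 passed after adjustment, Parg in the controls of experiment 3 (r = -0.801, rho = -0.775, n = 25, adjusted permutation p = 0.00096, r = -0.777 without the 2 farthest embryos). Slx1b had a positive r with the mitochondrial transcripts in all 6 groups, from 0.30 to 0.59, and Slx4 a negative one in all 6, from -0.74 to -0.02, none of which passed (2.19% of features were positive and 1.09% negative in all 6). The highest r of Slx1b, in the knockdown embryos of experiment 3, was 0.22 without the 2 farthest embryos and 0.10 without the 3 libraries that stood apart, and in the controls of experiment 1 it went from 0.47 to 0.11 without the 2 farthest. For Slx4 the sign turned without the 2 farthest embryos in the knockdown embryos of all 3 experiments (0.29, 0.00091 and 0.12). The median mitochondrial sums were higher in the knockdown arm, like Slx1b, and farthest apart in experiment 3, which holds the 3 libraries that stood apart. The difference of these sums between the arms without those libraries is not given here. The part of the mitochondrial transcripts in the difference of Slx1b was not tested.

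**Figure D5:**
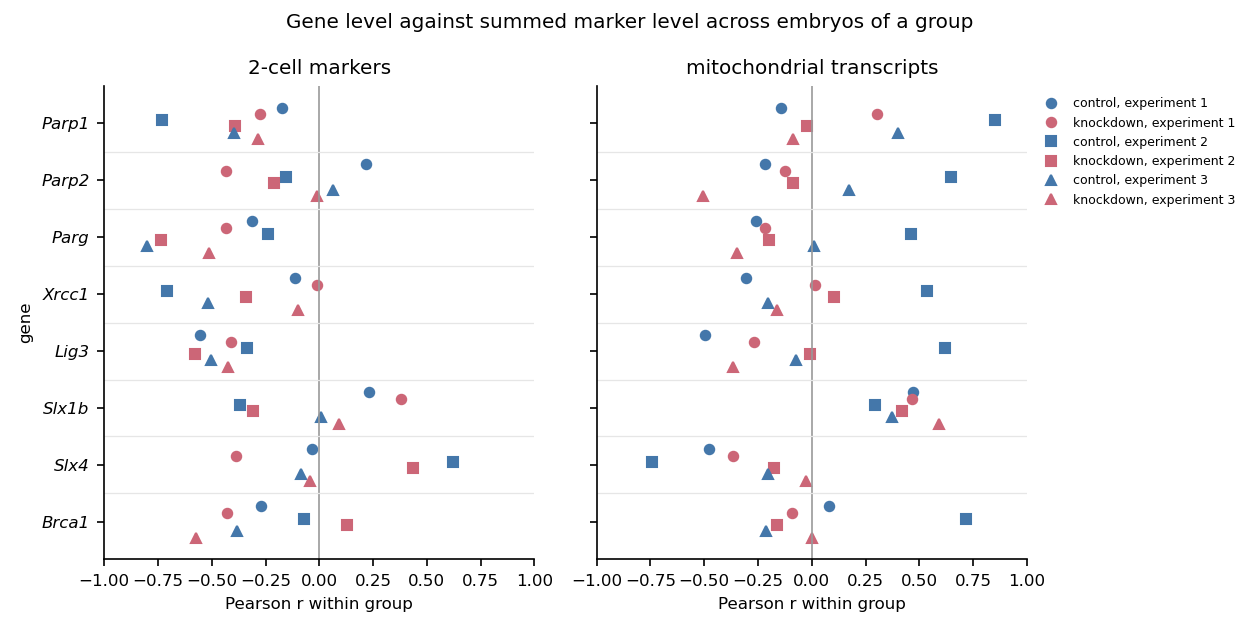
Pearson r, within each of the 6 groups, between the log2 level of each gene and the log2 summed level of the 2-cell markers (left) or the mitochondrial transcripts (right) of the same embryo; blue is control, red knockdown, and the shape marks the experiment. All 6 points of Parp1, Parg, Xrcc1 and Lig3 lie left of 0 on the left, and all 6 points of Slx1b lie right of 0 on the right.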

How the data were processed

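Single 2-cell embryos were sequenced, 56 control and 55 knockdown, in 6 groups of experiment and arm. The authors deposited expected counts, estimated for each transcript and not normalized; these were summed to genes and rounded to whole numbers; rows without a gene held a median of 0.567% of the counts and were left out. Tools in the submitters' processing notes are kallisto 0.46.1, Trim Galore 0.6.2, bcl2fastq, DESeq2 1.32.0 and R 3.5.1, and an annotation release was not given in the sources used. A deposited table of batch-adjusted values, a score with no stated method, was scaled to a common total, put on the log2 scale and used as an alternative only. The authors' deposited comparison table holds, for each transcript, a log2 fold change with its adjusted p-value. Positions are from GENCODE M21 and promoter letters from RefSeq (GRCm38.p6), which matched all 8 genes.

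Genes were tested with edgeR 4.0.16 (R 4.3.3): filterByExpr by arm, TMM, experiment as a factor, quasi-likelihood F-test, Benjamini-Hochberg over all genes at 0.05, with 107 residual degrees of freedom. Intervals are 95% intervals from the SE and the normal distribution. Alternatives used DESeq2 1.42.0, limma 3.58.1 (limma-voom), other scaling, no filter, and embryos or experiments left out. The fit was tested on simulated data without differences between experiments, in which 6.45% of calls were false. Correlations used log2 CPM (prior count 2) and 100000 permutations, two-sided (exact for 7 embryos), computed with SciPy 1.17.1. The smallest p they can give is 1e-05.

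The genes, the lists and the tests were chosen with earlier results of these data known. The text names the 8 genes, Nr5a2, up to 2 called genes per direction of each list or else the gene with the smallest p, and the 2 genes most like each of the 8. Rffl, Bola2, Bard1 and Lig3-204 were named after their values were seen. The highest r between embryos was 0.927, and each was counted as 1 sample.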

Additional observations from a re-analysis of the deposited data

Results flagged for a closer look

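Xrcc1 in the 7 controls of experiment 2 had 1 embryo far from the others. Embryo 6 stood at 40.1 CPM, and the next highest was 14.7 CPM, a gap of 0.773 of the whole range against a critical value of 0.568. The same embryo held the highest Parp1 and Lig3 of its group, and its 2-cell markers, at 253 CPM, were the lowest sum among the controls. The check was made on CPM, on both ends of the group for 8 genes, 16 checks in all. Chance flags about 1 in 20 groups where values follow the normal distribution, and whether CPM values do so here was not tested.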

How the results depend on the processing

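The log2 fold changes between the arms were recomputed under 14 alternatives, 12 planned and 2 (the left-out libraries) chosen after seeing the data. Parp1 kept its sign in all 14, from -0.72 to -0.48, as did Slx1b, from 0.43 to 0.67, Parg, from -0.24 to -0.12, and Brca1, from 0.19 to 0.29. Parp1 and Slx1b were chosen for this difference in the same embryos, so their kept sign is a description and lends it no support. Parp2 changed sign without experiment 1 (0.077), Xrcc1 without experiment 3 (0.062), and Lig3 without experiment 1 (-0.0495) and in the batch-adjusted values (-0.041). Slx4 lay at -0.021 with library totals alone, -0.0100 with limma-voom, -0.053 without experiment 3, -0.062 with counts summed by experiment and arm and -0.039 in the batch-adjusted values. Of the 6 tested genes 0 were called under any alternative. With limma-voom the transcripts Parg-204 (-0.24) and Xrcc1-201 (0.037) also changed sign. The causes were not tested.

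Calls over all genes, 63 lower and 85 higher, moved to 391 and 574 with no low-count filter, 288 and 151 after a term for principal component 1 was added, 9 and 14 without experiment 1, 11 and 29 without experiment 3, and 1 and 2 with summed counts. The lower calls were 98 with limma-voom; the higher calls were 141 with DESeq2, 134 without experiment 2 and 53 in the batch-adjusted values. In the repair lists 1 gene, Rnf8, was called with that term. Between experiments, the count of the 8 genes called became 2 with DESeq2 (controls, 2 against 1), 1 with limma-voom (knockdown, 2 against 1), 1 with no filter and 1 without the 3 libraries that stood apart (knockdown, 3 against 2), and 1 without these libraries (knockdown, 3 against 1). Called pairs fell from 10 to 6 without them. In the knockdown embryos of experiment 3, leaving them out turned the sign of r with the 2-cell markers for Slx4 (0.28) and with the mitochondrial transcripts for Parp1 (0.093), Xrcc1 (0.093), Slx4 (0.053) and Brca1 (0.28), none of which had passed.

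Embryo numbers did not pair the arms: in 46 pairs the median correlation of deviations was 0.0523, 16 were over 0.1, and 5 controls were closest to their own number. A fit with the replicate block called 8 genes lower and 11 higher, and gave -0.58 for Parp1 and 0.57 for Slx1b. Counts limit Xrcc1 most, at 0.292 CPM in its lowest embryo, 1 of the 3 libraries that stood apart, and 1.55 CPM in the next.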

Other observations

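The authors' deposited table, which tests transcripts over all embryos, gave the coding transcript Parp1-201 a log2 fold change of -0.65 and Slx1b-203 one of 0.45, both genes having been chosen for this difference. For the largest transcript of the other genes the authors' deposited table gave -0.12 for Parp2-201, -0.22 for Parg-201, -0.15 for Xrcc1-201, 0.14 for Lig3-203, -0.16 for Slx4-205 and 0.25 for Brca1-201. The adjusted p-values of these 6 in the authors' deposited table ran from 0.52 to 0.998.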
